A study of Homo sapiens with 6 samples.

Results

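Keratins were compared between 2 human breast cancer cell lines by RNA sequencing. The genes were all rows of the expression table whose symbol was KRT plus a number and at most 1 letter, which left out keratin-associated proteins and pseudogenes and gave 25 of the 17039 genes listed. A set of 3 libraries came from 231-BR cells, a variant of MDA-MB-231 that seeks the brain, and 3 came from the triple-negative line MDA-MB-231 itself, called the parental line here. Both lines were grown in DMEM with fetal bovine serum, and 231-BR cells in addition with G418, so that cell line and selection drug cannot be told apart. Each line was represented by a single cultured line, and whether the parallel replicates were separate cultures is not given in the sources used here, so the p-values measure the spread between these libraries, which may be technical.

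Keratins are the intermediate filament proteins of epithelial cells. A filament is built from pairs of an acidic type I chain and a basic or neutral type II chain, and both chains share a central coiled rod that ends in a strongly conserved motif. Pairs are used by cell type: KRT8 with KRT18 in simple epithelia, joined by KRT7 and KRT19 in ducts such as those of the breast, KRT5 with KRT14 in the basal layer of stratified epithelia, KRT10 above it, and further chains in hair and nail. The type I genes lie together on chromosome 17, and the type II genes lie on chromosome 12 with the single type I gene KRT18 at their edge.

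Of the 25 keratins, 14 were of type I, 10 of type II and 1, KRT222, was a truncated keratin-like gene that was kept out of both types. Expression is given in FPKM, fragments scaled to transcript length and to the size of the library, a level per length that allows genes to be set beside each other. Only 8 keratins reached 1 FPKM in any library: KRT18, KRT19, KRT10 and KRT15 of type I and KRT8, KRT7, KRT80 and KRT81 of type II. The stretch of coding sequence that ends the rod is shown for the 4 type I genes, since it carries the signature of the family and the point at which KRT19 departs from it. Each line has 60 bases of the sense strand, 5′ to 3′, from GENCODE release 29 on GRCh38, and the 21 capitals mark the codons of the 7 residues of the helix termination motif.
KRT18, chr12:52952287-52952725, plus strand: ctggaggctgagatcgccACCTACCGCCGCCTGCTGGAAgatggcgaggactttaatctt
KRT19, chr17:41523770-41523829, minus strand: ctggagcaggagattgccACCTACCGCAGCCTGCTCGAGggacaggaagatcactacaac
KRT10, chr17:40819152-40819566, minus strand: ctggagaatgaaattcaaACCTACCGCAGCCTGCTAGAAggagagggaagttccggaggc
KRT15, chr17:41514668-41515524, minus strand: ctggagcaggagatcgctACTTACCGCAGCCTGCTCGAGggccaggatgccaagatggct

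Over these 60 positions KRT19 had the same base as KRT15 at 45, as KRT10 at 41 and as KRT18 at 38, and the other pairs of type I genes matched at 34 to 38. KRT19 has almost no coding sequence behind the rod. Only 24 coding bases followed its window, against 114 in KRT18 and KRT15 and 369 in KRT10. The KRT19 window lay within exon 6, the last exon, while the other 3 windows crossed the junction of exons 6 and 7.

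The levels of the 8 expressed keratins differed between the lines in size and direction from gene to gene. KRT19 was 31.4-fold higher in 231-BR cells, KRT7 108-fold and KRT80 6.21-fold higher in the parental line, and the pair KRT8 and KRT18 led in both lines with differences of 1.35-fold and 1.29-fold. Genes were tested with limma on log2(FPKM + 0.1) across all 13465 genes with a mean of at least 0.1 FPKM, and a gene was called at an adjusted p under 0.05 and an absolute log2 fold change over 1. The test took in 11 keratins, and 6 were called, 2 higher in 231-BR cells (KRT19 and KRT222) and 4 lower (KRT7, KRT80, KRT81 and KRT86). KRT222, and KRT79 among those not called, passed the filter only through the line in which they were higher. These 2 genes are therefore no support in this count or in those that follow. Of all genes tested, 10.9% were called higher and 4.34% lower, 15.2% in all. An adjusted p under 0.05 alone was reached by 10 of the 11 keratins, 2 higher and 8 lower, beside 77.3% of all genes (44.4% higher and 32.9% lower), and for all 11 every library of 1 line was above every library of the other, beside 78.4% of all genes. The 11 tested keratins had a median log2 difference of -0.74, which was -0.84 over the 10 that were above 0 in both lines, and the median of all genes was 0.08. In RNA from whole cultures, fewer cells with a transcript and less of it per cell cannot be told apart.

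**Figure D1:**
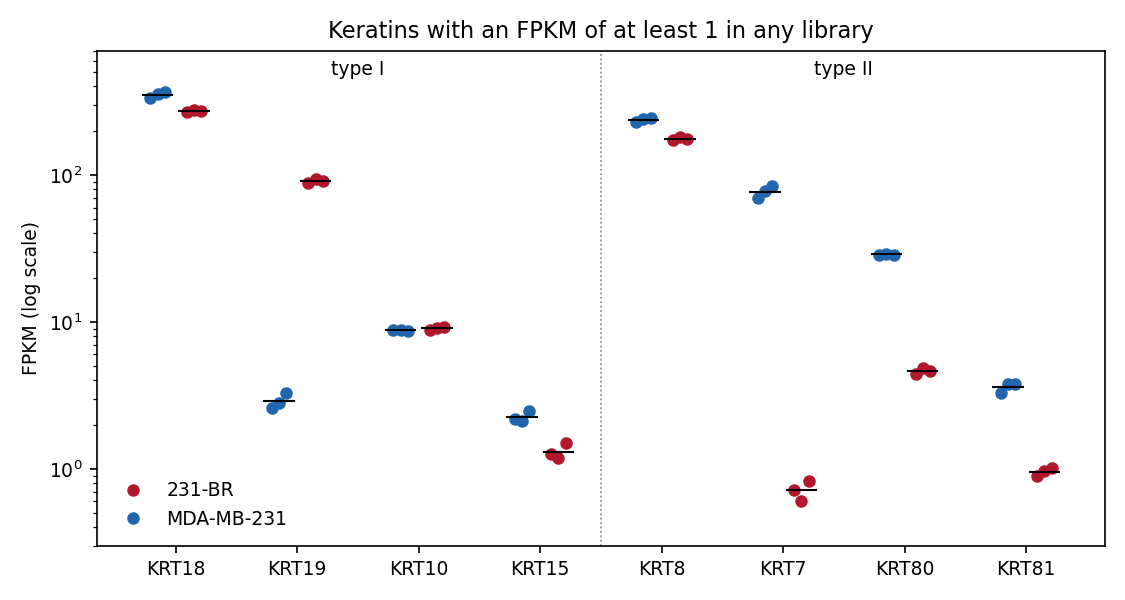
FPKM on a log axis of the 8 keratins that reached 1 FPKM in any library, with 1 point per library, in replicate order from left to right, and black lines at the mean of each line. KRT19 lay between 87.83 and 94.44 in 231-BR cells and between 2.61 and 3.26 in the parental line, KRT7 ran the other way, and KRT18 and KRT8 stood at the top in both lines.

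KRT18 and KRT8, the obligate pair of simple epithelia, were the most abundant keratins of both lines. KRT18 was at 269.09, 276.06 and 272.89 FPKM in 231-BR cells and at 335.83, 354.16 and 365.42 in the parental libraries. Every parental library was above every 231-BR library, and the means were 273 ± 3.49 and 352 ± 14.9 (SD, n = 3). The log2 difference was -0.37 with a standard error of 0.030 (limma adjusted p = 1.6e-06), below the fold needed for a call. KRT8, its type II partner, was at 173.92, 179.95 and 174.91 FPKM in 231-BR cells and at 228.52, 239.27 and 244.47 in the parental line. It was likewise lower in all 231-BR libraries, with a log2 difference of -0.43 ± 0.028 (SE, limma adjusted p = 3.0e-07). The ratio of KRT8 to KRT18 was 0.646, 0.652 and 0.641 in 231-BR cells and 0.680, 0.676 and 0.669 in the parental line. These ratios did not overlap, and a 2-sided exact permutation test of the difference of -0.0286 gave p = 0.10, the smallest that 3 against 3 libraries allow. By mean FPKM, KRT18 ranked 222 among all genes in 231-BR cells and 190 in the parental line, and KRT8 ranked 370 and 293. Together they made up 80.5% ± 0.278 of the keratin FPKM in 231-BR cells and 82.6% ± 0.350 in the parental line (SD, n = 3). The difference of -2.06 percentage points in this share was -0.441 after quantile normalization (exact p = 0.30) and -12.3 over keratins at 1 FPKM in every library, which leaves out KRT7 and KRT81.

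The genes KRT8 (chr12:52897187-52949954, minus strand) and KRT18 (chr12:52948871-52952901, plus strand) overlap at their ends on opposite strands. Transcripts of other genes shared 7.56% of the 100-base stretches of KRT8, most of them the pseudogene KRT8P3, and none of those of KRT18. The annotation names 50 pseudogenes for KRT8 and 68 for KRT18, and how the authors assigned reads that fit more than 1 gene is not given in the sources used here.

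KRT19, a type I keratin of ductal epithelium that is used as a marker of circulating carcinoma cells, had the largest increase in 231-BR cells among the keratins above 0 in both lines. Its level was 87.83, 94.44 and 90.55 FPKM in 231-BR cells and 2.61, 2.82 and 3.26 in the parental libraries. The lowest 231-BR library was thus far above the highest parental library, and the means were 90.9 ± 3.32 and 2.90 ± 0.332 (SD, n = 3). The log2 difference was 4.93 ± 0.069 (SE, limma adjusted p = 1.0e-11) and stayed between 4.56 and 5.02 in the 14 alternative settings. Among all genes, KRT19 ranked 836 in 231-BR cells and 9268 in the parental line. The gene lies on the minus strand at chr17:41523617-41528308 in 6 exons, and its coding sequence of 1200 bases is the shortest of the listed keratins apart from KRT222 with 885. No 100-base stretch of its transcript occurred in a transcript of another gene, and 5 pseudogenes carry its name.

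KRT19 was one of the genes for which the study designed reagents, shown here because they mark the parts of the transcript that its assays read or targeted. The sequences are from the study's tables of primers and shRNA targets, in lower case throughout, and each matched the KRT19 transcript exactly, the reverse primer as its complement.
KRT19 forward primer: accaagtttgagacggaacag
KRT19 reverse primer: ccctcagcgtactgatttcct
KRT19 shRNA 1: gcgaagccaatatgaggtcat
KRT19 shRNA 2: cgaaccaagtttgagacggaa
KRT19 shRNA 3: caggaagatcactacaacaat
All 5 lay in coding sequence on chromosome 17. The forward primer crossed from exon 2 to exon 3 (41525195 to 41524984), the reverse primer lay across exons 3 and 4 (41524844 to 41524522), shRNA 1 lay in exon 4 (41524445 to 41524425) and shRNA 2 crossed from exon 2 to exon 3 (41525198 to 41524987). The target of shRNA 3 was in exon 6 (41523787 to 41523767) and overlapped the end of the window printed above for KRT19. Among the 8 expressed keratins, the closest match to the forward primer was in KRT7 with 4 mismatches, to the reverse primer in KRT81 with 7, to shRNA 1 in KRT10 with 6, to shRNA 2 in KRT18 with 6 and to shRNA 3 in KRT10 with 7. Among all listed keratins the forward primer came closest to KRT17 with 2 mismatches, a gene at or below 0.21 FPKM in every library.

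KRT7, the type II keratin of ductal and glandular epithelium, showed the largest difference of all keratins and in the direction opposite to KRT19. It was at 0.72, 0.6 and 0.82 FPKM in 231-BR cells and at 69.42, 77.97 and 83.69 in the parental libraries. All 231-BR libraries were below 1 FPKM and all parental libraries above 69, with means of 0.713 ± 0.110 and 77.0 ± 7.18 (SD, n = 3). The log2 difference was -6.57 ± 0.098 (SE, limma adjusted p = 1.4e-11) and lay between -6.79 and -5.51 in the alternative settings. In rank among all genes KRT7 went from 1040 in the parental line to 11549 in 231-BR cells. The ratio of KRT19 to KRT7 was 122, 157 and 110 in 231-BR cells and 0.0376, 0.0362 and 0.0390 in the parental libraries, so that each line had 1 of these 2 ductal keratins at a high level. KRT7 lies at chr12:52232520-52252186 on the plus strand, where the annotated gene KRT86 begins within it on the same strand.

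KRT80, a type II keratin found in many epithelia, and the hair keratins KRT81 and KRT86 were also lower in 231-BR cells. KRT80 was at 4.39, 4.84 and 4.65 FPKM in 231-BR cells and at 28.72, 28.81 and 28.71 in the parental line. The groups were far apart and the parental libraries nearly equal, and the log2 difference was -2.61 ± 0.043 (SE, limma adjusted p = 2.6e-11). KRT81 was at lower levels, at 0.89, 0.97 and 1.01 FPKM in 231-BR cells and at 3.26, 3.78 and 3.75 in the parental line. Its libraries did not overlap, and the log2 difference was -1.81 ± 0.090 (SE, limma adjusted p = 3.9e-08). KRT86, with means of 0.177 ± 0.0153 FPKM in 231-BR cells and 0.473 ± 0.0611 in the parental line (SD, n = 3), was called lower at a log2 difference of -1.05 (limma adjusted p = 1.2e-04), but it was no longer called without MDA-MB-231 replicate 3 (-0.97) or with a pseudocount of 1 (-0.32). KRT81 and KRT86 are close paralogs that overlap on opposite strands. Of the 100-base stretches of KRT81, 29.4% also occurred in KRT86, and 27% of those of KRT86 occurred in KRT81, so the split of reads between them is uncertain.

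Among the expressed keratins classed with stratified epithelia, KRT80 was called lower, as given above, and KRT15 and KRT10 were not called. KRT15, found in basal cells and the hair follicle bulge, was at 1.26, 1.18 and 1.49 FPKM in 231-BR cells and at 2.17, 2.13 and 2.46 in the parental line. Its level was lower in all 231-BR libraries, at a log2 difference of -0.74 ± 0.10 (SE, limma adjusted p = 9.1e-05) that missed the fold needed for a call, although KRT15 passed it after quantile normalization (-1.11). KRT10, the type I keratin of cells that have left the basal layer, was at 8.81, 9.08 and 9.26 FPKM in 231-BR cells and at 8.79, 8.77 and 8.73 in the parental line. The 2 groups of libraries barely failed to overlap, the log2 difference was 0.05 ± 0.041 (SE, limma adjusted p = 0.33), and its sign turned under median-of-ratios scaling (-0.04) and quantile normalization (-0.08).

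The order of the keratins by mean level therefore differed between the lines. In 231-BR cells it was KRT18, KRT8, KRT19, KRT10, KRT80, KRT15, KRT81 and KRT7, and the libraries of neighbours in this order did not overlap. In MDA-MB-231 cells it was KRT18, KRT8, KRT7, KRT80, KRT10, KRT81, KRT19 and KRT15, in which KRT81 and KRT19 overlapped and the other neighbours did not. KRT7 held the third place in the parental line and the last in 231-BR cells, and KRT19 the seventh and the third.

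The other 17 keratins stayed under 1 FPKM in every library, the highest value being 0.54 for KRT86. KRT86, KRT79 and KRT222 alone among them passed the filter of the test. KRT79 of sebaceous and hair follicle epithelium had means of 0.0400 and 0.170 FPKM and was not called (log2 difference -0.95, limma adjusted p = 0.0022). It passed the filter only through the parental line, and it passed the fold with a pseudocount of 0.01 (-1.91), after quantile normalization (-1.29) and without 231-BR replicate 1 (-1.05). KRT222 was at 0.31, 0.28 and 0.21 FPKM in 231-BR cells and was at 0 in all parental libraries, so that it passed the filter only through the group in which it was higher and no fold is given. Of its 100-base stretches, 56.5% belonged also to an overlapping annotated gene. The 14 keratins that were not tested reached at most 0.3 FPKM, a value of KRT34 in 1 parental library. They included KRT5 and KRT14, the pair of basal cells, at no more than 0.03 and 0.15 FPKM, and the stress keratins KRT16 and KRT17, which wounded epithelium induces, at no more than 0.02 and 0.21. KRT14 and KRT33B, a hair keratin, were above 0 in all 231-BR libraries and listed at 0 in all parental libraries. No 231-BR library had a value above 0 for 5 keratins, and no parental library for 6.

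Since filaments pair 1 chain of each type, the FPKM of the types were summed. The type I sum was 368, 381 and 375 in 231-BR cells and 350, 368 and 380 in the parental libraries. These ranges overlapped, with means of 374 ± 6.79 and 366 ± 15.2 (SD, n = 3) and p = 0.50 in a 2-sided exact permutation test. The difference of 8.35 FPKM was -12.9 under median-of-ratios scaling and 40.2 after quantile normalization, so no direction is given. The type II sum was 180, 187 and 182 in 231-BR cells and 331, 350 and 361 in the parental line. Here the lines were apart, the mean of the parental line being 1.90-fold that of 231-BR cells (347 ± 15.7 and 183 ± 3.37, SD, n = 3, exact p = 0.10, the smallest possible). The ratio of type II to type I was 0.490, 0.490 and 0.485 in 231-BR cells and 0.945, 0.951 and 0.951 in the parental line. Transcripts of the types were thus close to parity in the parental line, and in 231-BR cells the type II sum was 0.488 ± 0.00310 of the type I sum (SD, n = 3, exact p = 0.10 for the difference of -0.461).

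**Figure D2:**
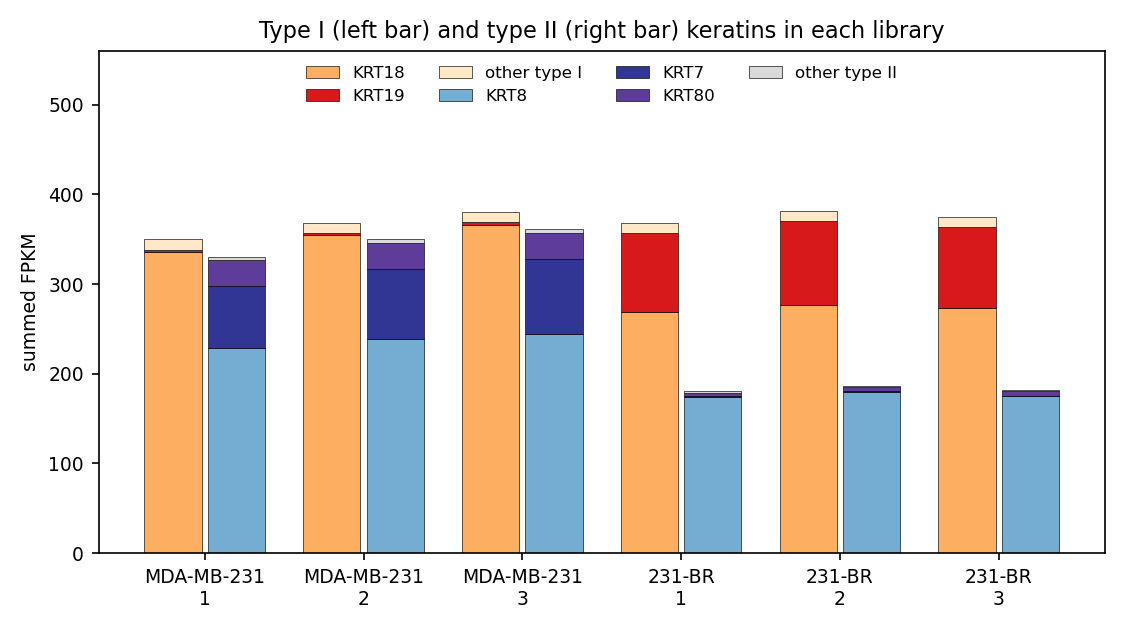
Summed FPKM of type I keratins (left bar) and of type II keratins (right bar) in each library, with each bar split by gene from 0 upwards, for 231-BR and MDA-MB-231 replicates 1 to 3. The type I bars reach 350 to 381 in both lines with a KRT19 block that is large in 231-BR cells alone, and the type II bars reach 180 to 187 in 231-BR cells and 331 to 361 in the parental line, where KRT7 and KRT80 are visible above KRT8.

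The make-up of each sum differed. KRT19 was 23.9%, 24.8% and 24.2% of the type I sum in 231-BR cells and 0.746%, 0.766% and 0.858% in the parental libraries, where KRT18 alone was 96.1%. In 231-BR cells KRT18 was 72.8% of the type I sum. By mean, KRT19 was higher by 88.0 FPKM in 231-BR cells and KRT18 lower by 79.1, and these differences nearly offset each other. KRT7 was 0.391% of the type II sum in 231-BR cells and 22.1% in the parental line, KRT80 2.53% and 8.28%, and KRT8 96.4% and 68.4%. All 4 expressed type II genes were lower in 231-BR cells: KRT7 by 76.3 FPKM, KRT8 by 61.2, KRT80 by 24.1 and KRT81 by 2.64. Type II chains other than KRT8 summed to 6.32, 6.68 and 6.69 FPKM in 231-BR cells and to 102, 111 and 117 in the parental line, so KRT8 made up nearly all of the type II FPKM of 231-BR cells. All keratins together summed to 558 ± 10.0 FPKM in 231-BR cells and 714 ± 30.9 in the parental line (SD, n = 3, exact p = 0.10). That was 0.118% to 0.120% of the FPKM of all genes in 231-BR cells and 0.140% to 0.149% in the parental line. The FPKM of all genes summed to between 465020 and 472007 in 231-BR cells and between 486937 and 496420 in the parental libraries, and the part of this in the keratin differences was not tested.

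All 25 keratins were placed in the annotation, 11 on chromosome 12 and 14 on chromosome 17. On chromosome 12 the first 4 listed genes in order of position, KRT80, KRT7, KRT86 and KRT81, were the 4 keratins called lower in 231-BR cells. They were followed by KRT5, KRT76, KRT4, KRT79 and KRT78, none above 0.21 FPKM, and by KRT8 and KRT18 at the far end. On chromosome 17, KRT15 (chr17:41513743-41522529) and KRT19 are direct neighbours, with log2 differences of -0.74 and 4.93. The genes on the other side of KRT19, KRT9 and KRT14, did not exceed 0.02 and 0.15 FPKM. Outside the clusters, the nearest expressed genes on chromosome 12 were ATG101, an autophagy gene, at a log2 difference of -0.24 (limma adjusted p = 0.0025) and EIF4B, a translation initiation factor, at -0.23 (1.2e-05). On chromosome 17 they were SMARCE1, a chromatin remodelling subunit, at 0.42 (limma adjusted p = 3.1e-07) and EIF1, another initiation factor, at -0.08 (0.0094). None of these 4 was called.

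**Figure D3:**
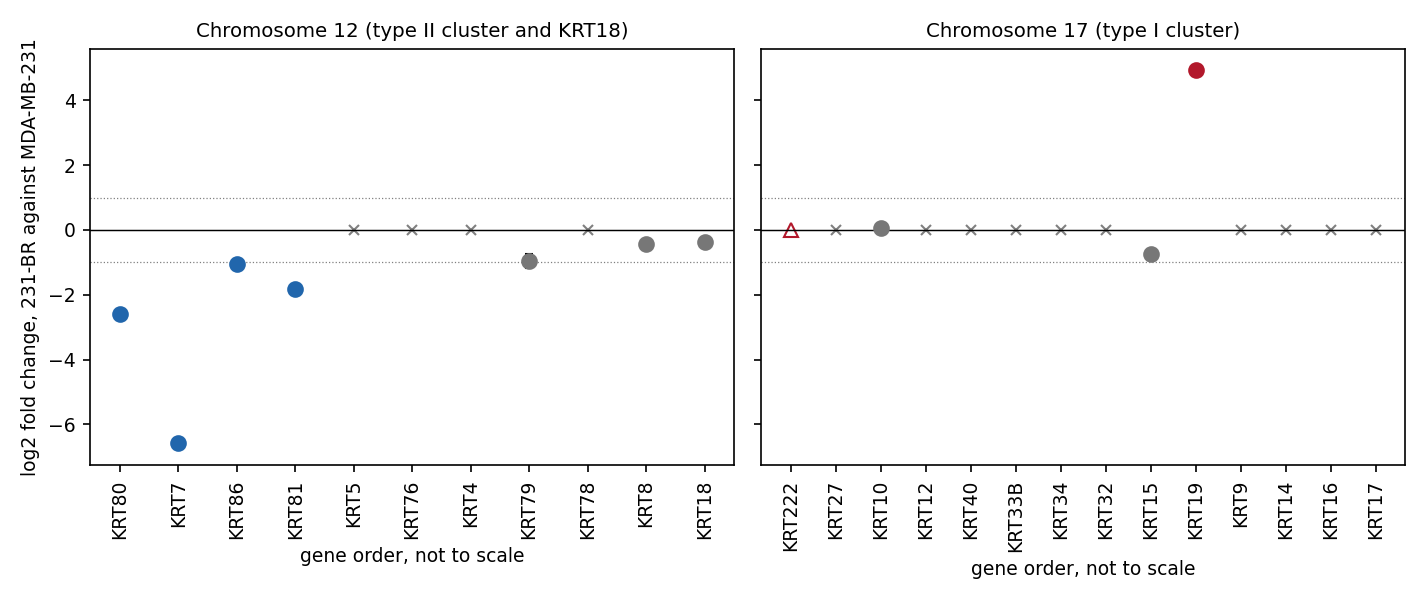
Log2 difference (231-BR minus MDA-MB-231) of the keratins of chromosome 12 and chromosome 17 in order of position, with standard errors as bars, most of them hidden by the points. Red points were called higher and blue points called lower in 231-BR cells, grey points were tested and not called, crosses on the zero line were not tested, the open triangle is KRT222, which was listed at 0 in the parental line, and dotted lines mark differences of 1. KRT80, KRT7, KRT86 and KRT81 lie side by side below -1, and KRT19 stands alone at 4.93 beside KRT15 at -0.74.

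Genes for proteins that anchor or bind keratin filaments were examined next, in a list of 18 symbols. Of the 13 tested, 2 were called higher in 231-BR cells and none lower. Another 10 had an adjusted p under 0.05 without the fold, and 1 did not. Among these 10, PKP4 (-0.57), EVPL (-0.55) and DST (-0.37) were lower in 231-BR cells and the others higher (0.16 to 0.63). The median log2 difference of the 13 was 0.23, beside 0.08 for all genes. Of all genes tested, 10.9% were called higher and 4.34% lower, and 77.3% had an adjusted p under 0.05 with or without the fold. DSP, desmoplakin, which ties keratin filaments to desmosomes, was at 17.2 ± 0.579 FPKM in 231-BR cells and 4.70 ± 0.384 in the parental line (SD, n = 3), a log2 difference of 1.85 (limma adjusted p = 1.9e-09). PKP2, a desmosomal plaque protein that binds desmoplakin, was at 17.5 ± 0.637 and 8.58 ± 0.427 FPKM (SD, n = 3), a log2 difference of 1.02 (limma adjusted p = 2.2e-08). PKP2 was just past the fold needed and was no longer called under median-of-ratios scaling, quantile normalization or a pseudocount of 1, or without MDA-MB-231 replicate 3.

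Among 18 genes for other intermediate filament proteins, 10 were tested and 1 was called, SYNC, which was higher in 231-BR cells and did not reach a mean of 1 FPKM in either line. The share called over all genes tested was 15.2%. The median log2 difference of the 10 was -0.01. VIM, vimentin, the filament protein of mesenchymal cells, was at 2553 ± 14.8 FPKM in 231-BR cells and 2306 ± 28.7 in the parental line (SD, n = 3), several times the sum of all keratins in both lines. Its log2 difference was 0.15 (limma adjusted p = 1.0e-04), below the fold for a call.

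Of 25 transcription and splicing regulators of epithelial cells, 14 were tested, 3 were called higher and 1 lower in 231-BR cells, 8 had an adjusted p under 0.05 without the fold, and the median log2 difference was 0.36. Among these 8, TFAP2C (log2 difference -0.98), GRHL1 (-0.67) and PITX1 (-0.31) were lower in 231-BR cells. KLF5 (0.93), TP73 (0.81), ESRP1 (0.71), SOX9 (0.50) and KLF4 (0.22) were higher. Over all genes tested, 10.9% were called higher and 4.34% lower. FOXA1, a pioneer factor of luminal breast epithelium, was at 5.47 ± 0.243 FPKM in 231-BR cells and 0.840 ± 0.105 in the parental line (SD, n = 3), a log2 difference of 2.57 (limma adjusted p = 4.5e-09). GATA3, another luminal factor, was at 1.24 ± 0.166 and 0.433 ± 0.10 FPKM (SD, n = 3), a log2 difference of 1.34 (limma adjusted p = 3.2e-05). TP63, which drives basal keratins in stratified epithelia, was called higher at 0.750 ± 0.187 against 0.247 ± 0.0208 FPKM (SD, n = 3), under 1 FPKM in both lines. After quantile normalization and with a pseudocount of 1, neither GATA3 (0.91 and 0.64) nor TP63 (0.87 and 0.48) was called. ESRP2, an epithelial splicing regulator, was the gene called lower, at 0.360 ± 0.0624 FPKM in 231-BR cells and 2.62 ± 0.395 in the parental line (SD, n = 3), a log2 difference of -2.56 (limma adjusted p = 7.7e-08). Its paralog ESRP1 was at 0.233 and 0.110 FPKM with a log2 difference of 0.71 that missed the fold, and GRHL2, which maintains epithelial identity, did not exceed 0.01 FPKM and was not tested.

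Of 24 genes of the cornified envelope and of squamous differentiation, 8 were tested, 2 were called higher and 3 lower in 231-BR cells, and the median log2 difference was -0.29, or 0.36 without SPRR2A, which was listed at 0 in every 231-BR library. The shares over all genes tested were 10.9% called higher and 4.34% called lower. SERPINB2, a serpin of differentiating keratinocytes, was at 28.4 ± 0.722 FPKM in 231-BR cells and 240 ± 8.50 in the parental line (SD, n = 3), a log2 difference of -3.08 (limma adjusted p = 2.2e-12). CNFN, cornifelin, was at 2.61 ± 0.685 and 1.12 ± 0.398 FPKM (SD, n = 3), a log2 difference of 1.18 (limma adjusted p = 0.0011). CNFN was no longer called without 231-BR replicate 1 (0.99), without MDA-MB-231 replicate 1 (0.94), after quantile normalization (0.81) or with a pseudocount of 1 (0.77).

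**Figure D4:**
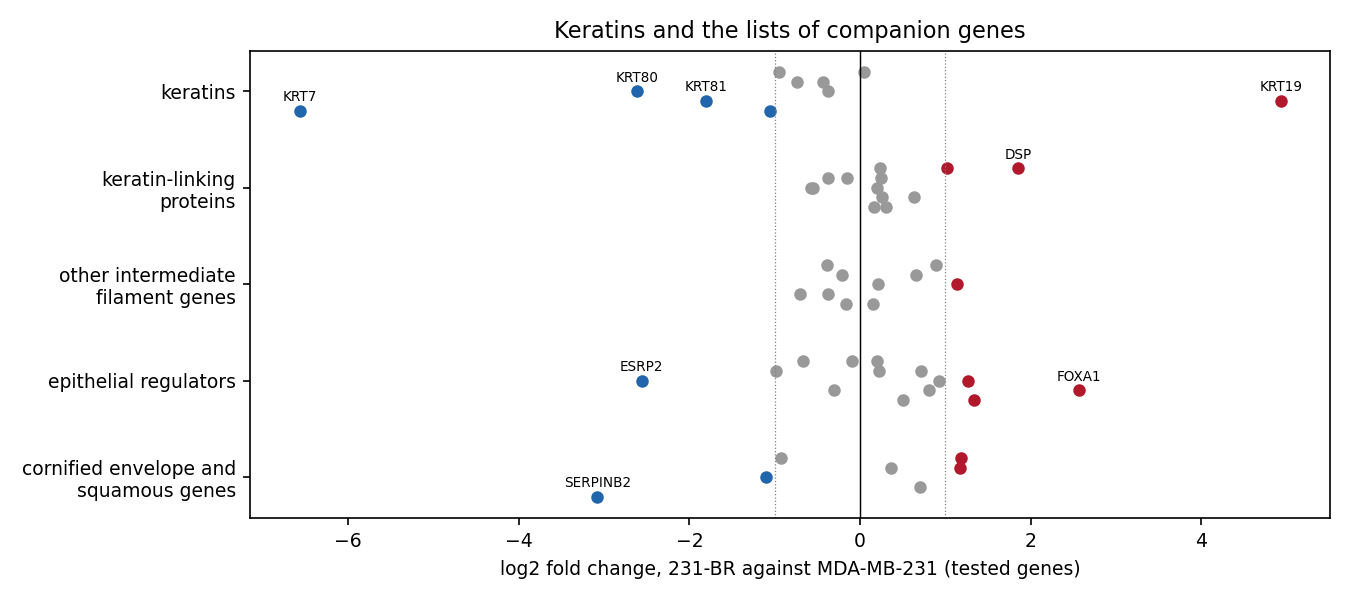
Log2 difference (231-BR minus MDA-MB-231) of every tested keratin and every tested gene of the 4 companion lists that was above 0 in both lines, with 1 point per gene, called genes in red (higher in 231-BR cells) or blue (lower), others in grey and dotted lines at differences of 1. DSP at 1.85 and FOXA1 at 2.57 stand out above the line, and ESRP2 at -2.56 and SERPINB2 at -3.08 below it.

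The label of both lines, breast cancer cells, was set beside markers of cell type. Of 11 breast epithelial markers, which include KRT8, KRT18 and KRT19, all were listed and 10 were tested. Of these, 4, with KRT19 among them, were called higher and 2 lower in 231-BR cells. All 11 summed to 568 to 587 FPKM in 231-BR cells and 590 to 637 in the parental line. Most of this was KRT18 (means 273 and 352), KRT8 (176 and 237) and, in 231-BR cells, KRT19 (90.9 and 2.90). The sum is therefore largely the keratin values again. Of all genes tested, 10.9% were called higher and 4.34% lower. CLDN3, called lower (means 0.0300 and 0.547 FPKM), passed the filter only through the parental line and was not called with a pseudocount of 1 (-0.58). ERBB3, called higher, was no longer called after quantile normalization (0.76), with a pseudocount of 1 (0.37) or without MDA-MB-231 replicate 2 (0.78). Apart from KRT19, the largest increase was in CD24, a surface glycoprotein, with means of 18.6 and 1.66 FPKM and a log2 difference of 3.41 (limma adjusted p = 4.6e-11). CLDN4, a tight junction claudin, was called lower, with means of 2.70 and 14.5 FPKM and a log2 difference of -2.38 (limma adjusted p = 2.7e-10). EPCAM, the epithelial adhesion molecule, was at 8.70 ± 0.534 FPKM in 231-BR cells and 5.06 ± 0.552 in the parental line (SD, n = 3), below the fold for a call. CDH1, E-cadherin, the defining adhesion gene of epithelium, did not exceed 0.03 FPKM in any library. Of 10 mesenchymal markers, 9 were tested, 3 were called higher, led by SNAI2 (log2 difference 1.92), a repressor of epithelial genes, and FN1 (1.36), fibronectin, and 1 was called lower, SPARC (-1.47), which stayed under 1 FPKM. The third, ZEB2 (1.03), was no longer called under median-of-ratios scaling (0.95), quantile normalization (0.68) or a pseudocount of 1 (0.70). It was also lost without 231-BR replicate 1 (0.99) or MDA-MB-231 replicate 3 (1.00). SPARC was not called with a pseudocount of 1 (-0.50). The mesenchymal markers summed to 3036 to 3069 FPKM in 231-BR cells and 2851 to 2900 in the parental line. Most of this was VIM, with means of 2553 and 2306. Below the fold, at a limma adjusted p under 0.05, AXL (-0.27) and CD44 (-0.47) were lower in 231-BR cells and VIM (0.15) and ZEB1 (0.20) higher.

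The sums of markers of other cell types differed between the lines as well, and their part in the keratin results was not tested. Neural and glial markers summed to 25.3 to 25.9 FPKM in 231-BR cells and 14.7 to 15.8 in the parental line, mostly MBP (21 and 13.6) and SLC1A3 (3.82 and 0.897), while GFAP, the defining intermediate filament of astrocytes, had means of 0.0433 and 0.00667. Of 5 tested, 1, SLC1A3, was called higher in 231-BR cells, beside 10.9% of all genes tested. Another 2 had a limma adjusted p under 0.05 without the fold, and 2 did not. Of the former, MBP was higher in 231-BR cells (log2 difference 0.62) and SNAP25 lower (-0.99). SNAP25 had means of 0.0533 and 0.203 FPKM and passed the filter only through the parental line. Blood and vessel markers summed to 81 to 84.7 FPKM and 62.2 to 65.0, nearly all of it CD68 (82.9 and 63.5), the 2 tested had a limma adjusted p under 0.05 without the fold, and PTPRC, which marks blood cells, had means of 0.0233 and 0 FPKM. Over all genes tested, 77.3% had an adjusted p under 0.05 with or without the fold.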

How the data were processed

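Each line, 231-BR and MDA-MB-231, was represented by 3 libraries of poly(A) RNA. The authors filtered the reads and mapped them to the genome with HISAT2 2.0.4. With Bowtie2 2.2.5 they aligned them to a gene set of BGI Tech that holds known and new coding transcripts. The labels give the build as GRCh38.p12, and FPKM were deposited with 2 decimals. The program that computed FPKM, its treatment of reads that fit several genes, its use of strand and the release of the gene set are not given in the sources used here. The depth per library is unknown, so no counting interval is given. The files of the 6 single libraries equalled the table of all libraries. Groups were taken from the sample titles, since the cell line field of the labels counts upward with the replicate.

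Keratins were selected by symbol, and classes and companion lists were written by hand. The members and lists were chosen with earlier results of these data known. Genes were kept at a mean of 0.1 FPKM or more, which left 13465. Their log2(FPKM + 0.1) values entered a limma model (limma 3.58.1 in R 4.3.3) with cell line as the term and a trended eBayes step, followed by Benjamini-Hochberg adjustment over all of them. A fold on this scale understates the change of low genes. Sums, shares and ratios were compared by 2-sided exact permutation tests. The alternatives were other pseudocounts and filters, eBayes with no trend, quantile normalization, median-of-ratios scaling, stricter calls, a replicate block and leaving out single libraries. The fit was tested on simulated data. Sequences and positions are from GENCODE release 29 (some sequences are not reported here), and Python 3.11.15, pandas 2.3.3, SciPy 1.17.1 and matplotlib 3.10.9 were used.

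Named genes were all keratins at 1 FPKM in any library, other keratins that were called, the 2 largest increases and 2 largest decreases among called genes at a mean of 1 FPKM in either line of each list, TP63, GRHL2, ESRP1, CDH1, EPCAM and VIM, and the nearest expressed gene on each side of a keratin cluster. KRT79, KRT34, KRT5, KRT14, KRT16, KRT17, KRT33B, SYNC, SPRR2A, SPARC, CLDN3, ERBB3, ZEB2 and the marker genes given for other cell types were named after their values were seen. The same holds for AXL, CD44, ZEB1, PKP4, EVPL, DST, TFAP2C, GRHL1, PITX1, KLF5, TP73, SOX9 and KLF4.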

Additional observations from a re-analysis of the deposited data

How the results depend on the processing

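The calls of KRT19, KRT7, KRT80 and KRT81 and the direction of KRT8, KRT18 and KRT15 were kept in all 14 alternative settings of the fit, except that KRT7 and KRT81 drop out where a mean of 1 FPKM in both lines is demanded, since their 231-BR means are below 1. The number of keratins called higher in 231-BR cells was 1 in place of 2 with a pseudocount of 1, a filter at a mean of 1 FPKM, or a mean of 1 FPKM in either line or both, and 1 to 2 with single libraries left out (1 without 231-BR replicate 1), KRT222 being lost each time. With no filter on low values this number was 3. The number called lower, 4 as reported, was 6 with quantile normalization (KRT15 and KRT79 added), 5 with a pseudocount of 0.01, 3 with a pseudocount of 1, the filter at 1, a fold over 1.5 or 1 FPKM in either line, 1 with 1 FPKM in both lines and 4 to 5 with single libraries left out. The 4 called lower without MDA-MB-231 replicate 3 were not the same 4, since KRT86 was not called there (-0.97). For keratin-linking genes, 1 in place of 2 was called higher with a pseudocount of 1, median-of-ratios scaling, quantile normalization or a fold over 1.5, and 1 to 2 with libraries left out. For other intermediate filament genes, 0 were called higher with a pseudocount of 1, the filter at 1, quantile normalization, a fold over 1.5, or 1 FPKM in either line or both. For epithelial regulators, 1 was called higher with a pseudocount of 1, the filter at 1, quantile normalization or a fold over 1.5, and 0 with 1 FPKM in both lines, and the number called lower was 2 with median-of-ratios scaling, 3 with quantile normalization, 0 with 1 FPKM in both lines and 1 to 2 with libraries left out. For cornified envelope genes, 0 were called higher with a pseudocount of 1, quantile normalization or a fold over 1.5, 1 with the filter at 1 or 1 FPKM in either line or both, and 1 to 2 with libraries left out, and 1 was called lower with a pseudocount of 1, the filter at 1 or 1 FPKM in either line or both, and 2 to 4 with libraries left out. The log2 difference of KRT10 turned to -0.04 with median-of-ratios scaling and -0.08 with quantile normalization. The difference in the type I sum was -12.9 and 40.2 under these scalings and 0.223 to 15.3 with libraries left out. The difference in the type II sum was -179 and -146 under them, -85.3 over keratins at 1 FPKM in every library (KRT7 and KRT81 left out) and -173 to -158 with libraries left out. The ratio of type II to type I differed by -0.472 with quantile normalization, -0.244 over keratins at 1 FPKM in every library and -0.463 to -0.459 with libraries left out, and the share of KRT19 by 22.9 with quantile normalization and 23.2 to 23.7 with libraries left out. The median log2 difference of all genes was 0.08 as reported, 0.00 with median-of-ratios scaling and -0.06 with quantile normalization. Apart from these counts and values, the cause of a change was not tested.

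The deviations of same-numbered libraries had correlations of 0.0873, -0.0396 and -0.106, beside -0.154 to 0.183 for libraries of unlike number. With 3 libraries a line, these values cannot settle whether the numbers pair the libraries. With the replicate number as a block, 2 keratins were called higher and 4 lower, as without it, the type II sum differed by -165, the ratio by -0.461 and the KRT19 share by 23.5 (exact sign-flip p = 0.25, the smallest that 3 pairs allow), and the type I sum by 8.35 (p = 0.50). The use of 3 libraries a line and of FPKM with 2 decimals limits what can be said of keratins near 0.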

Other observations

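Genes for keratin-associated proteins, which cross-link hair keratins and lie within the keratin cluster of chromosome 17 or elsewhere, were outside the rule that chose the keratins. Of the 10 that were listed, 9 did not exceed 0.54 FPKM. KRTAP2-3 was at 32.99, 29.05 and 32.35 FPKM in the 231-BR libraries and at 14.84, 16.01 and 14.21 in the MDA-MB-231 libraries. It was called higher in 231-BR cells at a log2 difference of 1.06 ± 0.056 (SE, limma adjusted p = 5.9e-08), and was at 0.98 and not called under median-of-ratios scaling. The type I hair keratins KRT32, KRT33B and KRT34 did not exceed 0.3 FPKM.

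Beyond the type I cluster on chromosome 17, the 10 next expressed genes on the KRT19 side had a median log2 difference of 0.57 (range -0.08 to 4.07) and 2 of them were called, FKBP10 at 4.07 and P3H4 at 2.16, both of which act on collagen in the endoplasmic reticulum. These 2 genes were named after their values were seen. The 10 on the other side had a median of 0.15 with 1 called. The 10 genes before and after the chromosome 12 cluster had medians of 0.03 and -0.28 with 1 and 0 called. Of all genes tested, 15.2% were called, and a change shared by a region was not tested.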
